A study of Mus musculus with 12 samples.

Results

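The genes described here are 10 secreted chemokines and myeloid growth factors, taken by symbol from the 57010 genes of the count tables: Csf1, Csf2, Csf3, Cxcl1, Cxcl2, Cxcl5, Cxcl12, Ccl2, Ccl7 and Il6. All 10 symbols were found. RNA-seq was run on 2 mouse ovarian cancer lines, ID8 and 28-2, grown in 2D culture, with 3 libraries in each of 4 groups. 28-2-200f and ID8-200f cells carried a lentivirus for miR-200c and miR-141 and another for miR-200b, miR-200a and miR-429, driven by CMV promoters and marked with mCherry and GFP. 28-2EV and ID8EV cells carried the empty vector, which has EGFP and puromycin resistance and places mCherry behind an EF1A promoter. The groups also differed in drug selection, with puromycin at 60 and hygromycin at 1000 µg/ml for 28-2-200f, puromycin at 40 and hygromycin at 50 µg/ml for ID8-200f, and puromycin at 30 µg/ml for both EV groups. The effects of the miRNAs, the vectors and the drugs cannot be told apart. The libraries were prepared from independent samples of each transduced line, so the p-values measure the spread between such samples.

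Growth factors of the CSF family and the chemokines listed above are small secreted proteins through which tumor cells act on blood and bone marrow cells. CSF1 keeps monocytes and macrophages alive and makes them proliferate, CSF2 (GM-CSF) acts on granulocytes and macrophages, and CSF3 (G-CSF) drives the production of neutrophils. CCL2 and CCL7 recruit monocytes through CCR2, CXCL1, CXCL2 and CXCL5 recruit neutrophils through CXCR2, CXCL12 holds and guides CXCR4-bearing cells, and IL-6 signals through IL6RA and the shared chain gp130 (Il6st). Ovarian tumors and the ascites fluid around them are known for a large content of macrophages.

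The miRNAs in the vectors fall into 2 seed groups, which decide the sites they can pair with. Their mature 3p sequences (RefSeq, GRCm38.p6) are printed with the seed, bases 2 to 8 from the 5′ end, in capitals.
miR-200b: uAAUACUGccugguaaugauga
miR-200c: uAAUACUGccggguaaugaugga
miR-429: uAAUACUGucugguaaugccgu
miR-200a: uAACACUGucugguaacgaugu
miR-141: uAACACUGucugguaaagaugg
A 7-base match to the first seed reads CAGTATT in a transcript and a match to the second reads CAGTGTT. The 5 miRNA genes themselves had 0 reads in all 12 libraries, so the tables hold no measure of the vectors' miRNAs. The study measured them by RT-PCR. In ID8-200f it reports significant increases of miR-200b, miR-200a and miR-200c, but not of miR-429 or miR-141. In the 200f cells of the other line it reports significant increases of all 5.

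None of the 10 members had CAGTATT in its longest annotated 3′UTR (GENCODE M21), and 3 of them had CAGTGTT. Csf1 had neither match in 2111 bases, whereas 20.9% of the 2799 3′UTRs within 20% of that length hold CAGTATT and 24.8% hold CAGTGTT. The study, using the prediction software miRWalk, counts Csf1 among direct miR-200 targets, so that prediction and the search used here differ. Cxcl12 had 2 matches to CAGTGTT in 5188 bases, a length at which 53.2% of 3′UTRs hold one or more. The windows around both matches are shown because Cxcl12 changed in one line, with the match in capitals and the distance counted from the first base after the stop codon.
Cxcl12, base 2473: taggtctgaagtCAGTGTTagggaagggcc
Cxcl12, base 4962: cagcgatgggttCAGTGTTgtgtgtggtga
Csf3 and Cxcl2 had 1 match to CAGTGTT each. A match describes letters and not a working site, and its absence speaks only for the window searched.

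**Figure D1:**
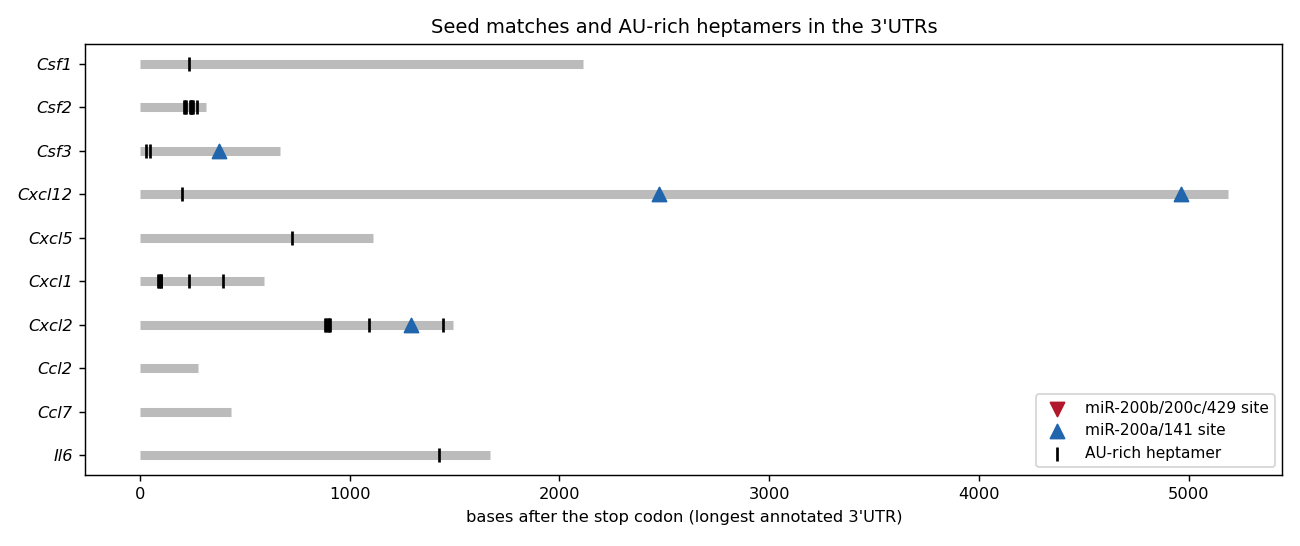
Position of 7-base seed matches (triangles) and of the AU-rich heptamer TATTTAT (bars) in the longest annotated 3′UTR of each member, in bases after the stop codon, with grey lines to scale. No member has a match for miR-200b/200c/429, Cxcl12 has 2 for miR-200a/141, and the AU-rich bars are densest in Csf2, Cxcl1 and Cxcl2.

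The members also differed in the AU-rich heptamer TATTTAT, a core of the elements that shorten the life of many cytokine transcripts. Csf2 had 9 copies, overlapping ones counted, in a 3′UTR of 317 bases, and 8.22% of 3′UTRs of like length have any. Cxcl2 had 7 copies and Cxcl1 had 6, where 33.5% and 15.6% of like 3′UTRs hold one. Csf1, Cxcl12, Cxcl5 and Il6 had 1 copy each, Csf3 had 2, and Ccl2 and Ccl7 had none. Csf2, Csf3, Cxcl1 and Cxcl2, with more than 1 copy each, had few reads, and so did Il6 with 1 copy. A link between copies and abundance was not tested.

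Total counts per library were 16390953 to 23063875, and 0 reads in a library allow a level of up to 0.130 to 0.183 CPM (reads of a gene scaled to a common library total). Csf1, Cxcl12 and Ccl2, 3 of the members, had over 50 reads in each of the 12 libraries. Cxcl5 and Ccl7 passed 1 CPM in some libraries of a single group, and the remaining 5 stayed under 1 CPM everywhere. After the filter on low counts 3 members could be tested in 28-2, 4 in ID8 and 6 in the comparisons over all 12 libraries. Of all libraries 28-2EV replicate 2 stood apart most. The SD of its log2 deviations from the group mean was 0.566 over 13620 genes, where the ID8 libraries had 0.202 to 0.266. Intervals and limits from read numbers cover counting error only.

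Levels between genes were compared as TPM, which corrects for transcript length. Csf1 stood first in every group, at 41.3 ± 3.93 TPM in 28-2-200f, 185 ± 62.4 TPM in 28-2EV, 145 ± 6.43 TPM in ID8-200f and 387 ± 38.4 TPM in ID8EV (SD, n = 3 each). In ID8 the order continued with Cxcl12, at 63.6 ± 2.13 TPM in ID8-200f and 46.9 ± 2.14 TPM in ID8EV, and with Ccl2, at 21.0 ± 2.30 TPM in ID8-200f and 24.5 ± 5.77 TPM in ID8EV. The ranges of these 3 genes did not overlap in either ID8 group. In 28-2-200f, Cxcl12 at 30.5 ± 15.4 TPM and Ccl2 at 28.0 ± 16.4 TPM overlapped each other, and both reached into the range of Csf1, which ran from 37.0 to 44.6 TPM. In 28-2EV, Ccl2 at 60.1 ± 54.5 TPM and Cxcl12 at 40.7 ± 12.8 TPM likewise differed by less than their spread. Of the rest, Ccl7 averaged 9.59 ± 12.4 TPM in 28-2EV and Cxcl5 averaged 6.95 ± 2.05 TPM in ID8-200f, and every other mean was under 2 TPM.

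**Figure D2:**
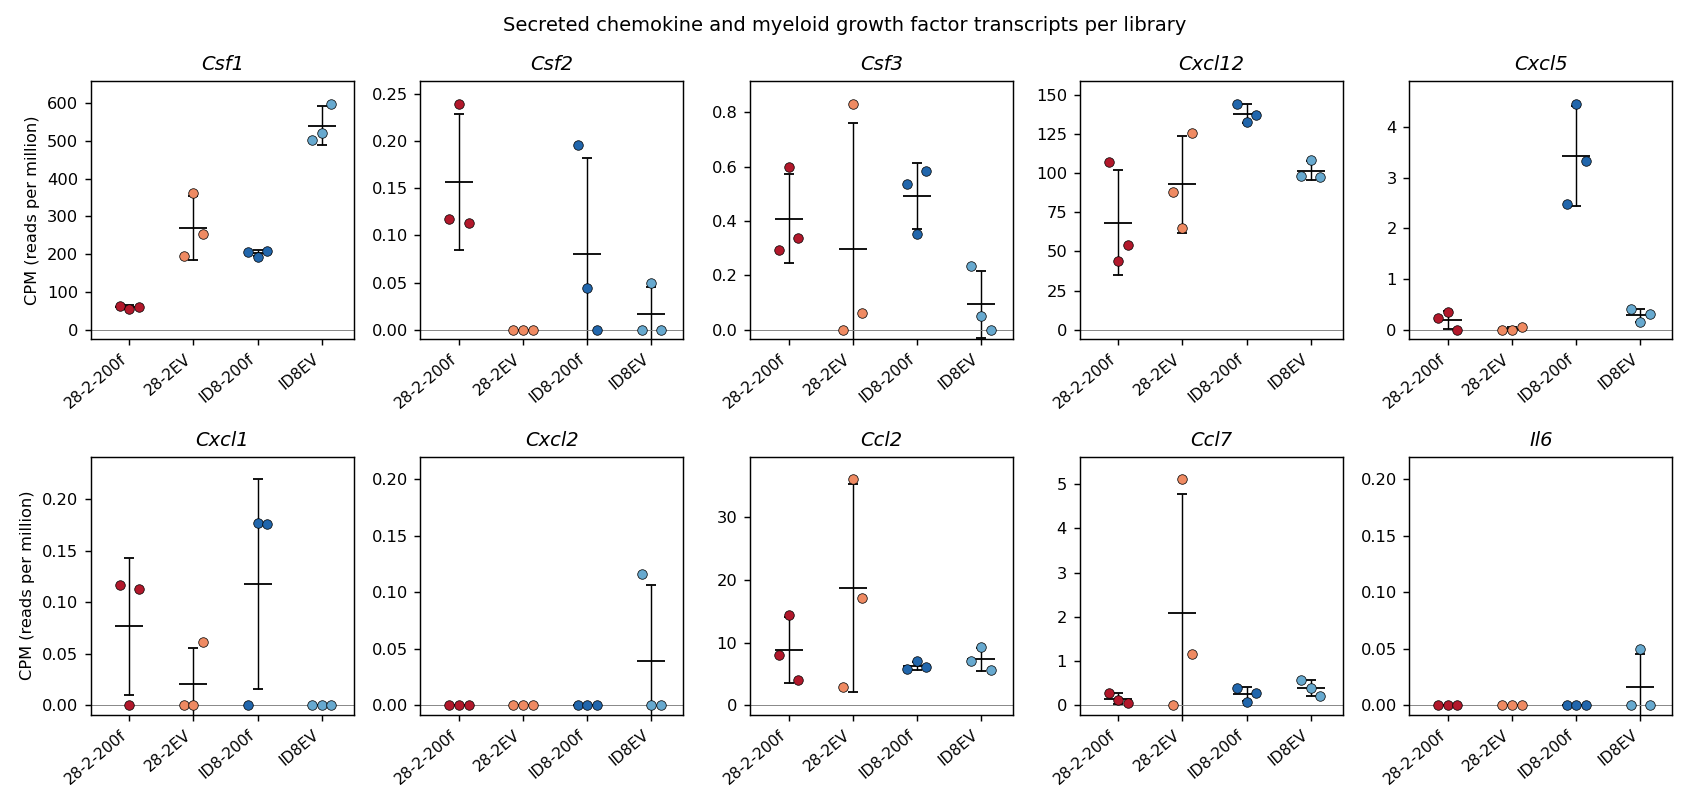
CPM of each member in each of the 12 libraries (points), with the group mean and SD (n = 3, black). Panels have their own linear axes, from 0. Csf1 is lower in both 200f groups than in their EV groups, Cxcl5 is highest in ID8-200f, and Ccl2 and Ccl7 spread widely in 28-2EV.

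The comparison of 200f with EV cells asked which of these secreted factors differ in cells that carry the miR-200 vectors. Csf1, the macrophage growth factor, fell in both lines. In 28-2 it had 64.0, 54.7 and 61.5 CPM in 28-2-200f, against 194.5, 361 and 254 CPM in 28-2EV. In ID8 it had 206, 194 and 209 CPM in ID8-200f, against 501, 521 and 598 CPM in ID8EV. The groups did not overlap in either line, and the lowest EV library of each line was more than double its highest 200f library. Csf1 was 4.42-fold lower in 28-2-200f (log2 fold change -2.15, SE 0.26, edgeR adjusted p = 0.00936) and 2.62-fold lower in ID8-200f (log2 fold change -1.39, SE 0.09, edgeR adjusted p = 1.39e-07). It passed the study's own cut-off, FDR under 0.01 together with |log2 fold change| over 1, in both lines. The study likewise lists Csf1 among genes differentially expressed in both lines, and relates it to epithelial mesenchymal transition. Without 28-2-200f replicate 2 the 28-2 value was -2.09 with an edgeR adjusted p of 0.0555. Without 28-2EV replicate 2, which had the highest Csf1 of its group, it was -1.84 with an edgeR adjusted p of 0.00248.

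Among members, 1 of the 3 tested was called in 28-2 (FDR under 0.05), where 4.45% of all 12679 genes tested were called. In ID8, 3 of the 4 tested were called, where 36.0% of all 13280 genes tested were called. Cxcl5, among those 3, entered the test only through ID8-200f, where it was high, so that count is a description. At the study's cut-off the shares of all genes were 0.757% in 28-2 and 7.41% in ID8, and Csf1 in both lines and Cxcl5 in ID8 passed. These shares are 96 and 984 genes by the edgeR fits used here. The study itself reports more genes at that cut-off in both lines, and far more in 28-2. The median log2 fold change over the members tested was -1.08 in 28-2 and 0.15 in ID8, beside -0.01 and 0.00 over all genes tested in the same lines. With 3 members tested, the 28-2 median is the value of Ccl2, which was not called and was -0.14 without 28-2EV replicate 2.

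Cxcl12, the ligand of CXCR4, rose in ID8. It had 144.2, 132.4 and 137.0 CPM in ID8-200f, against 98.2, 108.3 and 97.4 CPM in ID8EV, with no overlap. The difference was 1.39-fold (log2 fold change 0.47, SE 0.08, edgeR adjusted p = 4.97e-04), under the study's fold cut-off. It was no longer called when all 12 libraries shared one estimate of the spread (edgeR adjusted p = 0.272). In 28-2, Cxcl12 had 106.9, 44.1 and 54.2 CPM in 28-2-200f, against 87.6, 64.7 and 125.7 CPM in 28-2EV. These ranges overlapped, and the log2 fold change of -0.42 had a 95% interval from -1.23 to 0.39 (edgeR adjusted p = 0.568). A fall as large as the rise in ID8, or little change, lies within that interval.

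Cxcl5, a neutrophil chemokine, rose in ID8 at a low level. It had 51, 101 and 57 reads in ID8-200f, against 7, 3 and 7 reads in ID8EV, which is 3.43 ± 0.989 CPM against 0.287 ± 0.131 CPM. The difference was 12.2-fold (log2 fold change 3.61, SE 0.41, edgeR adjusted p = 1.70e-05). Cxcl5 passed the filter only through the group where it was high. In 28-2 it had 4, 6 and 0 reads in 28-2-200f, against 0, 0 and 1 read in 28-2EV, too few for the filter. The ratio of those group sums was 10.1, with an exact 95% counting interval from 1.44 to 439.

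The other CXCR2 ligands stayed at the edge of detection, although they lie in the same cluster on chromosome 5. Gene order in RefSeq (GRCm38.p6) runs Cxcl5, Ppbp, Pf4, Cxcl3, Cxcl15, Cxcl1, Cxcl2. Cxcl1 had 0, 4 and 3 reads in ID8-200f, against 0, 0 and 0 in ID8EV. With ID8EV set to a floor of 3 reads over the group, the ratio was 2.34, which leaves out counting error in the ID8-200f reads. In 28-2, Cxcl1 had 2, 0 and 2 reads in 28-2-200f, against 0, 0 and 1 in 28-2EV. Cxcl2 had 2 reads in ID8EV replicate 1 and none in the other libraries. Of the genes between them, Pf4 had 0 reads in all 12 libraries and Cxcl3 had at most 3 reads in any. Cxcl15 had 4, 3 and 4 reads in 28-2-200f, against 14, 0 and 17 in 28-2EV, and 18, 4 and 8 reads in ID8-200f, against 17, 19 and 31 in ID8EV. Cxcl1, Cxcl2 and Cxcl3 are close in sequence, and how reads that match more than 1 of them were counted is not given.

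Of the members, 6 had an entry among the RefSeq promoters, which run from 250 bases before to 50 bases after the start, namely Csf1, Csf2, Cxcl1, Cxcl2, Cxcl12 and Il6. A kB motif, GGGNNTTTCC on either strand, stood in 4 of these 6, against 1.63% of all 32851 promoters. The windows of the barely detected chemokines and Il6 are printed beside that of Csf1, the most abundant member, with the motif in capitals, reading along the gene's strand. The distance is from the motif's first base to the start site.
Cxcl1, 71 bases before the start: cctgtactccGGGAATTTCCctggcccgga
Cxcl2, 97 bases before the start: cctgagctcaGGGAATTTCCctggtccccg
Il6, 44 bases before the start: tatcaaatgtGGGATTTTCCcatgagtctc
Csf1, 154 bases before the start, motif on the opposite strand: gggccttgagGGAAAGTCCCtaggggccag
Cxcl1 and Cxcl2 had another motif each within the same window, and Csf2 and Cxcl12 had none. Members with a motif included both the most abundant one and ones with almost no reads. NF-kB activity was not measured, and its part in the member levels was not tested. NF-kB subunit transcripts were present throughout, with Rela averaging 192 CPM in 28-2-200f, 214 CPM in 28-2EV, 225 CPM in ID8-200f and 215 CPM in ID8EV. Other genes of the pathway were less even between libraries. In 28-2EV, replicates in order, Nfkb2 had 242, 441 and 232 CPM and Tnfaip3 had 16.3, 89.0 and 28.6 CPM. Rel, which was not highest in replicate 2, had 37.8, 29.6 and 31.7 CPM there.

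Ccl2 and Ccl7, monocyte chemokines that are immediate neighbours on chromosome 11, varied widely between the 28-2EV libraries. Ccl2 had 71 to 242 reads a library in 28-2-200f, against 52 to 650 reads in 28-2EV. Ccl7 had 5, 2 and 1 reads in 28-2-200f, against 0, 92 and 19 reads in 28-2EV. Across the 28-2EV libraries both genes were highest in replicate 2 and lowest in replicate 1. Ccl2 gave a log2 fold change of -1.08 with a 95% interval from -3.02 to 0.85 in 28-2 (edgeR adjusted p = 0.531), and of -0.14 without 28-2EV replicate 2. Ccl7 was below the filter in 28-2. Its group sums of 8 and 111 reads were 13.7-fold apart, lower in 28-2-200f, with 92 of the 111 reads from a single library, and without a filter its edgeR adjusted p was 0.0622.

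In ID8, the Ccl2 groups overlapped. The gene had 5.81, 7.07 and 6.13 CPM in ID8-200f, against 7.12, 9.33 and 5.68 CPM in ID8EV (log2 fold change -0.18, 95% interval -0.61 to 0.24, edgeR adjusted p = 0.503). Ccl7 had 8, 2 and 5 reads in ID8-200f, against 10, 8 and 5 in ID8EV. The interval for Ccl2 holds no change as large as a 2-fold one, which is a log2 of 1.

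Of the other growth factors, Csf3 had 11, 8 and 10 reads in ID8-200f, against 4, 1 and 0 in ID8EV, without overlap. It did not pass the filter in either line. Without a filter its log2 fold change in ID8 was 2.45 (edgeR adjusted p = 0.0301), and with all 12 libraries in one fit the edgeR adjusted p was 0.210. In 28-2 it had 5, 10 and 6 reads in 28-2-200f, against 0, 15 and 1 in 28-2EV, where replicate 2 again held nearly all the reads. Csf2 had 2, 4 and 2 reads in 28-2-200f, against 0, 0 and 0 in 28-2EV. With 28-2EV set to a floor of 3 reads over the group, the ratio was 2.70, which leaves out counting error in the 28-2-200f reads. In ID8, Csf2 had 4, 1 and 0 reads in ID8-200f, against 0, 1 and 0 in ID8EV, a ratio of 5.01 with an exact 95% counting interval from 0.561 to 237. Il6 had 1 read in ID8EV replicate 2 and none in the other 11 libraries, so a difference was not detectable at this depth.

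**Figure D3:**
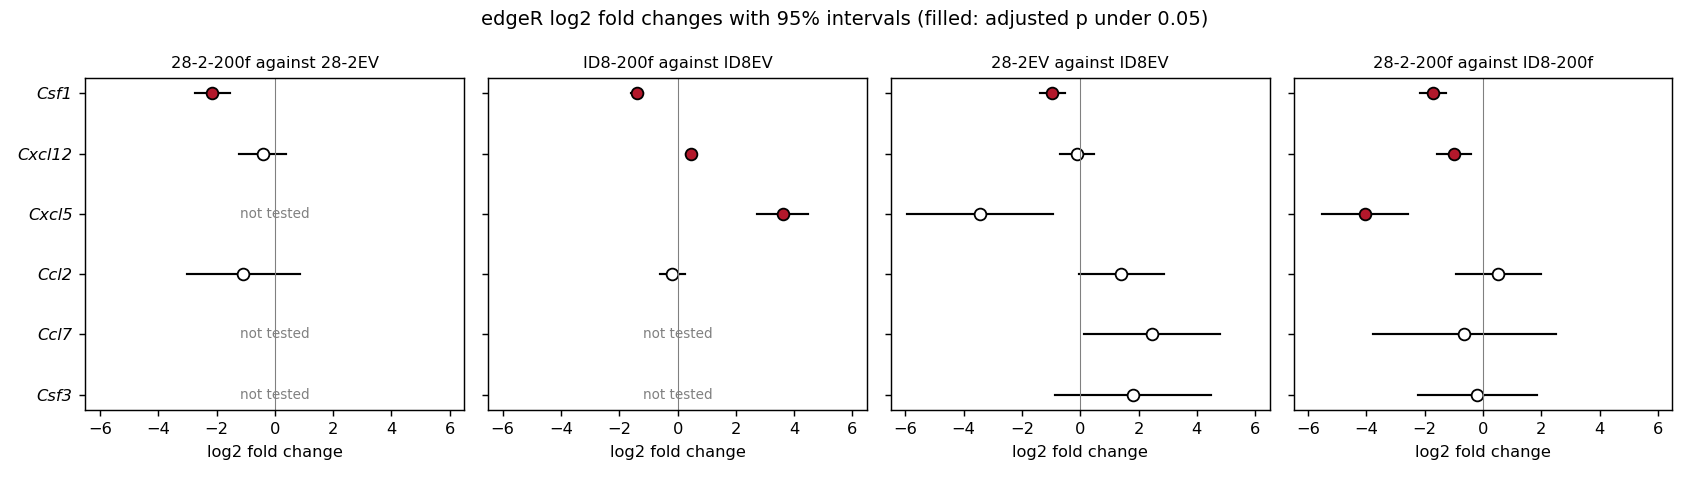
edgeR log2 fold changes of the 6 members tested in any comparison, with 95% intervals as lines and filled points where the adjusted p is under 0.05. Csf1 lies left of 0 in all 4 comparisons, from -0.96 to -2.15, and the intervals of Ccl2, Ccl7 and Csf3 are wide wherever 28-2 libraries enter.

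The next comparison asked whether a member's difference between 200f and EV cells was unequal in the lines. edgeR called 0 of the 6 members tested, where 2.97% of all 13620 genes were called, and 2 of them, Csf1 and Cxcl12, had an unadjusted p under 0.05. DESeq2 also called 0 and limma called 1, where over all genes they called 920 and 453. The 28-2 difference minus the ID8 difference was -0.75 for Csf1 on the log2 scale (95% interval -1.35 to -0.15, edgeR adjusted p = 0.198) and -0.88 for Cxcl12 (95% interval -1.71 to -0.06, edgeR adjusted p = 0.273). With no filter on low counts both were called, at edgeR adjusted p values of 0.0479 and 0.0251. Csf1 was also called without 28-2EV replicate 1 (edgeR adjusted p = 0.0446), and Cxcl12 without 28-2-200f replicate 1 (edgeR adjusted p = 0.0416). The limma call, on log2(TPM + 1), was Cxcl5 at -1.93 (adjusted p = 0.00722). Cxcl5 passed the filter only through ID8-200f, where it was high, so that call is a description. Its ratio of group read sums, 200f over EV, was 10.1 in 28-2 and 12.3 in ID8.

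Between the lines, Csf1 was lower in 28-2 whichever vector the cells carried. Its mean was 60.1 ± 4.84 CPM in 28-2-200f, against 203 ± 8.03 CPM in ID8-200f, 3.27-fold lower (log2 fold change -1.71, SE 0.20, edgeR adjusted p = 3.59e-04). Among cells with the empty vector it was 270 ± 84.6 CPM in 28-2EV, against 540 ± 51.2 CPM in ID8EV, 1.95-fold lower (log2 fold change -0.96, SE 0.20, edgeR adjusted p = 0.0119). The second value was not called without ID8EV replicate 3 (edgeR adjusted p = 0.0595). Of the 6 members tested, 3 were called between the 200f groups, all lower in 28-2-200f, where 7.24% of all genes were called and 3.67% were called lower. Cxcl5, among the 3, again passed the filter only through ID8-200f. Between the EV groups 1 of 6 was called, Csf1, where 7.00% of all genes were called.

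The others called between the 200f groups were the CXC chemokines. Cxcl5, with 10 reads in all in 28-2-200f and 209 in ID8-200f, had a log2 fold change of -4.06 (SE 0.68, edgeR adjusted p = 0.00383), a test it entered only through the group where it was high. Cxcl12 averaged 68.4 ± 33.7 CPM in 28-2-200f and 138 ± 5.94 CPM in ID8-200f, a log2 fold change of -0.99 (SE 0.27, edgeR adjusted p = 0.0467). That call lies at the threshold, since RLE size factors gave an edgeR adjusted p of 0.0502, library size scaling 0.0613, and 5 of the 6 fits that leave out a library 0.119 to 0.161. Between the EV groups, Ccl2 averaged 18.7 ± 16.6 CPM in 28-2EV and 7.37 ± 1.84 CPM in ID8EV (log2 fold change 1.41, 95% interval -0.05 to 2.86, edgeR adjusted p = 0.246). Its 28-2EV libraries lay on both sides of the ID8EV range. Without a filter both Ccl2 and Ccl7 were called higher in 28-2EV, with edgeR adjusted p values of 0.00276 and 0.0114.

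Receptors through which the members act were mostly absent from these cells. Of 18 receptor genes listed, among them Ackr4, which binds chemokines other than the members, 14 stayed under 1 CPM in all libraries, and Cxcr4, Csf3r and Csf2rb were among 6 with 0 reads throughout. Csf1r, the CSF1 receptor, had 5 reads in all, each in ID8EV. Ackr3, the scavenging receptor for CXCL12, had 0 reads in both 200f groups, against 2, 0 and 15 reads in 28-2EV and 1, 3 and 4 in ID8EV. The signaling chain of the IL-6 family, Il6st, was well expressed, at 218 ± 18.3 CPM in 28-2-200f, 315 ± 42.7 CPM in 28-2EV, 251 ± 17.9 CPM in ID8-200f and 292 ± 21.2 CPM in ID8EV. Ackr4, which scavenges other chemokines such as CCL19 and CCL21, fell in both lines, with log2 fold changes of -4.74 in 28-2 (edgeR adjusted p = 0.0477) and -5.03 in ID8 (edgeR adjusted p = 1.27e-07). The 28-2 call was lost in 5 of the 6 fits that left out a library. Csf2ra rose in ID8 by 0.33 on the log2 scale (edgeR adjusted p = 0.0458) and was lost in 4 of 6 such fits. The remaining receptors tested, Il6ra and Il6st, were not called in either line. So 1 of 4 was lower in 28-2, and 1 was higher and 1 lower in ID8. Of all genes, 4.45% and 36.0% were called in the same lines. With all 12 libraries in one fit, 2 of the 4 were lower in 28-2, and 1 was lower in ID8. That fit called 2325 of all 13620 genes in 28-2 and 1008 in ID8.

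Of 30 other chemokines, 22 stayed under 1 CPM. Cxcl16, a membrane-bound chemokine that is released by proteases, rose in both lines. It had 94.9, 85.4 and 112.9 CPM in 28-2-200f, against 45.2, 38.6 and 49.2 CPM in 28-2EV, and 48.3, 43.6 and 53.3 CPM in ID8-200f, against 37.2, 35.2 and 30.1 CPM in ID8EV, without overlap in either line. The log2 fold changes were 1.18 in 28-2 (SE 0.17, edgeR adjusted p = 0.0143) and 0.53 in ID8 (SE 0.10, edgeR adjusted p = 0.00148). It was the single edgeR call among the 6 tested in 28-2, where 4.45% of all genes were called. DESeq2 called 1 higher and 1 lower there, as did edgeR with all 12 libraries in one fit, among 9 tested. Over all genes in 28-2, DESeq2 called 1468 and that edgeR fit called 2325. The Cxcl16 call in 28-2 was lost without 28-2EV replicate 1 (edgeR adjusted p = 0.0689) or 28-2-200f replicate 2 (edgeR adjusted p = 0.0568). Among the 9 tested in ID8, 1 was called higher (Cxcl16) and 1 lower, where 36.0% of all genes were called. Cxcl17 fell (log2 fold change -1.04, edgeR adjusted p = 0.00225), a call that was lost with all 12 libraries in one fit (edgeR adjusted p = 0.313). Cxcl10, an interferon-induced chemokine, had 179 reads in 28-2EV replicate 2 and 26 and 39 in the other libraries of that group, the order seen for Ccl2.

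Among 12 cytokines tested in each line, 1 rose and 0 fell in 28-2, where 4.45% of all genes were called. There 5 had an unadjusted p under 0.05. DESeq2 called 2 higher and 2 lower in 28-2, as did edgeR with all 12 libraries in one fit. In ID8, 3 rose and 6 fell, where 36.0% of all genes were called. In ID8 DESeq2 called 3 higher and 4 lower, and the fit of all 12 libraries called 1 higher and 1 lower. Over all genes, DESeq2 called 1468 in 28-2 and 4713 in ID8, and the fit of all 12 libraries called 2325 and 1008. The median log2 fold change of the 12 cytokines was -0.65 in ID8, beside 0.00 over all genes. Spp1 (osteopontin), a secreted protein that binds integrins on macrophages, was the one that rose in both. It had 2142, 2300 and 1089 CPM in 28-2-200f, against 642, 541 and 401 CPM in 28-2EV, and 2469, 2020 and 2424 CPM in ID8-200f, against 1020, 996 and 562 CPM in ID8EV. Its log2 fold changes were 1.83 in 28-2 (SE 0.31, edgeR adjusted p = 0.0216) and 1.45 in ID8 (SE 0.17, edgeR adjusted p = 2.62e-05). Leaving out 28-2EV replicate 1 or 3 or 28-2-200f replicate 1 or 2 ended the 28-2 call, with edgeR adjusted p values of 0.0693 to 0.0920. The study lists Spp1 among genes differentially expressed in both lines, and relates it to cell migration. Il34, the other ligand of the CSF1 receptor, fell in ID8 along with Csf1, at 8.95 ± 0.523 CPM in ID8-200f and 16.5 ± 1.69 CPM in ID8EV (log2 fold change -0.86, edgeR adjusted p = 2.68e-04). In 28-2 it had 13.9 ± 4.45 CPM in 28-2-200f and 19.2 ± 2.59 CPM in 28-2EV, with a 95% interval of the log2 fold change from -1.03 to 0.15.

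Kitl, the growth factor of mast cells and blood progenitors, fell in ID8 (log2 fold change -0.74, edgeR adjusted p = 0.00139), and so did Il18, an inflammasome-processed cytokine (log2 fold change -1.77, edgeR adjusted p = 5.50e-04). Lif, a gp130 cytokine like IL-6, rose there by 0.76 on the log2 scale (edgeR adjusted p = 2.82e-04) and Mif by 0.39 (edgeR adjusted p = 0.00660). The fits that pooled the spread over 12 libraries did not call Lif, Mif, Kitl or Il18 (edgeR adjusted p from 0.0929 to 0.248). Il1b and Tslp had 0 reads in all 12 libraries, and Tnf had 1 read in all.

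**Figure D4:**
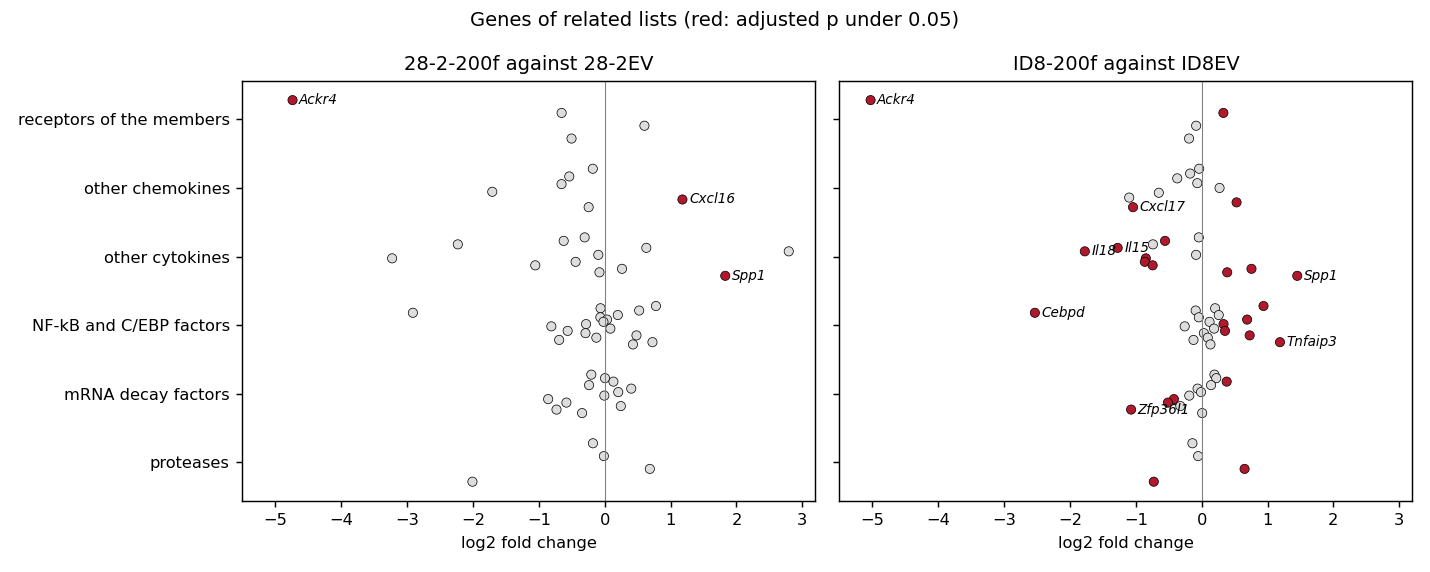
edgeR log2 fold changes of the tested genes of 6 related lists, 28-2 in the left panel and ID8 in the right, 1 point per gene and red where the adjusted p is under 0.05. Names stand beside called genes with an absolute log2 fold change over 1. The red points are Ackr4, Cxcl16 and Spp1 in 28-2, and lie in all 6 lists in ID8, with 9 among the cytokines.

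The factors that act on cytokine promoters and transcripts were tested in full. Of 18 NF-kB and C/EBP genes, 6 rose and 1 fell in ID8, a share close to the 36.0% of all genes called there. In 28-2 edgeR called 0, while 6 had an unadjusted p under 0.05. DESeq2 called 1 higher and 3 lower, limma called 0, and edgeR with all 12 libraries in one fit called 3 higher and 3 lower. Over all genes in 28-2, DESeq2 called 1468 and that last fit called 2325, against 564 by edgeR with the line fitted alone. Rel rose by 0.73 on the log2 scale in ID8 (edgeR adjusted p = 8.19e-05), Ikbkg by 0.69 (edgeR adjusted p = 5.30e-05) and Tnfaip3, which restrains NF-kB and is also its target, by 1.19 (edgeR adjusted p = 1.72e-04). Cebpd, a C/EBP factor that acts on cytokine genes including Il6, fell 5.78-fold in ID8, to 5.65 ± 1.18 CPM in ID8-200f, against 32.9 ± 8.17 CPM in ID8EV (log2 fold change -2.53, edgeR adjusted p = 5.20e-07). In 28-2 Cebpd had 11.7, 6.34 and 3.72 CPM in 28-2-200f, against 49.1, 17.0 and 100.4 CPM in 28-2EV, without overlap but short of a call (log2 fold change -2.91, 95% interval -4.45 to -1.38, edgeR adjusted p = 0.0542).

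Of 12 factors of the decay and stability of cytokine transcripts, 1 rose and 3 fell in ID8, near the 36.0% of all genes. In 28-2 edgeR called 0, while 3 had an unadjusted p under 0.05. DESeq2 called 1 higher, limma called 0, and edgeR with all 12 libraries in one fit called 1 higher and 1 lower. Zfp36l1, which directs AU-rich transcripts to decay, fell in ID8 to 92.6 ± 8.12 CPM in ID8-200f, against 198 ± 37.8 CPM in ID8EV (log2 fold change -1.07, edgeR adjusted p = 1.76e-05). Tia1 and Zc3h12a (Regnase-1), a translational repressor and an RNase, fell by 0.42 and 0.51 on the log2 scale, and Hnrnpd rose by 0.38. Of 4 proteases tested in ID8, Ctsc rose and Mmp14, which can cleave CXCL12, fell (log2 fold change -0.73, edgeR adjusted p = 1.14e-04). There 36.0% of all genes were called. Of 4 tested in 28-2, edgeR called 0, while 1 had an unadjusted p under 0.05. DESeq2 called 1 lower, limma called 0, and edgeR with all 12 libraries in one fit called 1 lower of 5 tested. Over all genes in 28-2, DESeq2 called 1468, limma called 583 and that edgeR fit called 2325. With all 12 libraries in one fit, Tnfaip3, the 4 decay factors and both proteases were not called in ID8 (edgeR adjusted p from 0.110 to 0.299), while Rel, Ikbkg and Cebpd were.

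Most markers of the cells that would answer these factors were at or near 0. Of the 12 leukocyte markers listed, Adgre1, Itgam, Tyrobp, Cd3e and Ly6g, defining markers of macrophages, myeloid cells, T cells and neutrophils, had 0 reads in all 12 libraries. Cd68, a macrophage marker and lysosomal protein, had reads in every library, with 23 to 35 reads in 28-2-200f, 38 to 63 in 28-2EV, 46 to 67 in ID8-200f and 66 to 69 in ID8EV, and was not called in either line. The summed level of the 12 was 2.08 to 5.20 CPM in 28-2-200f, 2.42 to 3.72 CPM in 28-2EV, 3.03 to 3.56 CPM in ID8-200f and 3.04 to 4.26 CPM in ID8EV. S100a9, the single one of them that was called, had 29, 49 and 11 reads in 28-2-200f, against 0 in each library of 28-2EV (edgeR adjusted p = 0.0354). It passed the filter only through the group where it was high. In ID8, S100a9 had 3, 9 and 6 reads in ID8-200f, against 0 in each library of ID8EV, too few for the filter. Beside the marker counts that follow, 4.45% of all genes tested were called in 28-2 and 36.0% in ID8. Fibroblast markers fell with Csf1 in ID8. Of 6, 5 of 5 tested fell there and 2 of 4 tested fell in 28-2, where Dcn, the most abundant of them, averaged 273 CPM in 28-2-200f and 242 CPM in 28-2EV and was not called, with Thy1 at 0 throughout, and their sum was 212 to 400 CPM in 28-2-200f against 81.6 to 487 CPM in 28-2EV, and 115 to 171 CPM in ID8-200f against 481 to 532 CPM in ID8EV. Epithelial markers, those of the labelled cell type, were present. Their sum over 5 genes was 4910 to 5550 CPM in 28-2-200f against 2890 to 3160 CPM in 28-2EV, and 3860 to 4260 CPM in ID8-200f against 3140 to 3420 CPM in ID8EV, and 2 rose in 28-2 by edgeR and 4 in ID8, with Epcam at 0 reads in 28-2EV. DESeq2 called 5 of 5 epithelial markers higher in 28-2, and so did edgeR with all 12 libraries in one fit. Over all genes, DESeq2 called 1468 and that edgeR fit called 2325 in 28-2. Of 6 mesothelial markers, 1 fell in 28-2, and 1 rose and 5 fell in ID8, with a sum of 1380 to 1930 CPM in 28-2-200f against 1400 to 2130 CPM in 28-2EV, and 1510 to 1800 CPM in ID8-200f against 2960 to 3820 CPM in ID8EV. The part of these markers in the Csf1 result was not tested, and in cultured cells fewer expressing cells and less RNA per cell cannot be told apart.

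Over the 12 libraries and 9772 genes with a mean of at least 5 CPM, the genes whose log2 CPM was most like that of Csf1 were Ppfibp1 (Pearson r = 0.977) and Adamtsl4 (0.972). For Cxcl12 they were Ppp2r3c (0.931) and Zmynd11 (0.920), and for Ccl2 they were Trim65 (0.862) and Zwint (0.819). The libraries share groups and lines, so these values describe likeness only.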

How the data were processed

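RNA-seq of 12 libraries was analysed. Per the study's methods, the authors used BBDuk for trimming, STAR for alignment and featureCounts for counting, all within the Genialis software, and the submitters' processing notes name GRCm39. The strand setting, the annotation and the version of STAR are not given in the sources used here. The deposited values were whole read counts, and CPM and TPM computed by the authors. Deposited CPM equals each count over its library total and is printed as the level. TPM served to compare genes. Totals were 16390953 to 23063875.

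Differences were tested on the deposited counts by the quasi-likelihood test of edgeR 4.0.16 under R 4.3.3. Libraries were scaled by TMM, and filterByExpr removed low genes (minimum count 10, minimum total 15). Each line was fitted alone, and differences between lines were taken from one fit of all 12 libraries. Benjamini-Hochberg adjustment ran over all genes, with calls at an FDR under 0.05. limma 3.58.1 and DESeq2 1.42.0 were alternatives. The steps were tested on simulated data. Python 3.11.15 with scipy 1.17.1 gave exact counting intervals (95%).

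The 10 members and all lists were chosen with earlier results of these data known. Named genes were the members, up to 3 genes per direction, line and list by adjusted p, and the 2 genes most alike each member with a mean of at least 5 CPM. Other genes named with reads or levels, such as Cxcl10, Cxcl15, Ackr3, Rela and Nfkb2, were chosen after their values were seen. A leukocyte marker of the list is not reported here. Replicate numbers are given in the labels, but same-numbered libraries did not deviate together (correlations from -0.300 to 0.206), so they were not treated as pairs. GENCODE M21 and RefSeq rest on an older build than the files, so no coordinates are printed.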

Additional observations from a re-analysis of the deposited data

Results flagged for a closer look

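The interaction test called no member of the 6 tested, but it called 3 genes of the related lists. Il18 was higher on average in 28-2-200f and lower in ID8-200f than in their EV groups, with 12.3, 2.81 and 15.5 CPM in 28-2-200f against 0.563, 0.389 and 3.60 CPM in 28-2EV, and 2.34, 0.884 and 1.99 CPM in ID8-200f against 4.61, 5.85 and 7.37 CPM in ID8EV. The 28-2 difference minus the ID8 difference was 4.57 on the log2 scale (edgeR adjusted p = 0.0401). Cx3cl1, the membrane-bound chemokine fractalkine, was lower in each 28-2-200f library than in each 28-2EV library and higher in each ID8-200f library than in each ID8EV library, with a difference of -0.92 (edgeR adjusted p = 0.0336). Ikbkg, the regulatory subunit of the IkB kinase, gave -0.65 (edgeR adjusted p = 0.0418). Over the alternatives the adjusted p reached 0.124 for Il18, 0.0977 for Cx3cl1 and 0.159 for Ikbkg, and each was lost in most fits that left out 1 library.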

How the results depend on the processing

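Member calls kept their direction in every alternative run. The count of members called in 28-2 was 0 to 1 when a library was left out. For the difference between line responses it was 2 with no filter, 1 with limma, and 0 to 1 leaving out a library. Between the EV groups it was 2 with DESeq2, 4 with no filter, 0 at the study's cut-off, and 0 to 3 leaving out a library. Uncalled log2 values changed sign when 1 library was left out. Their ranges were -0.338 to 0.0185 for Ccl2 in ID8 (ID8EV replicate 2 out). For the line difference they were -3.61 to 1.12 for Csf3 and -1.49 to 0.0280 for Ccl2 (28-2EV replicate 2 out), and -1.36 to 1.37 for Cxcl5 (28-2EV replicate 3 out). Between the EV groups they were -1.32 to 3.41 for Csf3 and -0.370 to 0.108 for Cxcl12 (28-2EV replicate 2 out). Between the 200f groups they were -0.581 to 0.0245 for Csf3 (28-2-200f replicate 1 out) and -0.0705 to 0.859 for Ccl2 (28-2-200f replicate 2 out). The cause was not tested.

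Over all genes, 4775 were called in ID8, with 1008 in the fit of all 12 libraries and 984 at the study's cut-off. In 28-2, 564 were called, with DESeq2 1468, no filter 1090, all 12 libraries 2325, the cut-off 96, and 98 to 1377 leaving out a library. For the difference between lines 405 were called, with DESeq2 920, no filter 906, the cut-off 168, and 213 to 748 leaving out a library. Between the EV groups 953 were called, with DESeq2 1606, no filter 1553, the cut-off 317, and 474 to 1804 leaving out a library. Between the 200f groups 986 were called, with DESeq2 1577, the cut-off 303, and 463 to 832 leaving out a library. With the replicate block these counts were 265 in 28-2, 244 for the line difference, 633 between EV groups and 599 between 200f groups, and no member call changed. The share of higher calls under limma on TPM was 17.0% against 33.5% between the EV groups and 31.4% against 49.3% between the 200f groups. Members under about 1 CPM are limited by depth.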
